A study of Caenorhabditis elegans with 4 samples.

Results

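The nuclei described here were the hypodermis nuclei of day 1 adult *C. elegans*, found in a single-nucleus RNA-seq study of the equilibrative nucleoside transporter genes ent-1 and ent-2. A nucleus was taken as a member when at least 1 unique molecular identifier (UMI, a tag that counts 1 captured RNA molecule) was seen in 4 or more of 10 genes, F18E3.11, F18E3.12, F18E3.13, pqn-72, ztf-26, F16C3.2, grsp-2, F23F12.12, F25E5.8 and nlp-33. The rule picked 4773 of 52147 nuclei. The members were thus selected on UMI counts of the same nuclei, and levels of these 10 genes are given as a description only.

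Each of the 4 conditions had 1 library, made from many pooled whole worms, stained with Hoechst and sorted on DNA content, with the polyploid intestinal nuclei kept. Control worms (ctrl) were N2 wild type and ate HT115 bacteria that carried L4440, a vector with no insert. The ent-1KO worms carried the CRISPR knockout ent-1(rax74) and the ent-2KO worms the CRISPR knockout ent-2(rax75), each on the same L4440 bacteria. The ent-1KO;ent-2KD worms were the ent-1KO strain on HT115 bacteria that express ent-2 double-stranded RNA, so that ent-2 was knocked down by feeding and not deleted, and the bacteria differ from those of the other worms. With 1 library per condition no test between conditions is possible and no p-value is given. Intervals are exact 95% intervals that cover counting error only, and a difference between 2 libraries is a difference between those libraries.

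The hypodermis is the epidermis of the worm. Its large syncytia and the seam cells secrete the collagens that make up the cuticle, and a new cuticle is built at every molt. The tissue also makes antimicrobial peptides when the cuticle is wounded or infected by fungi, stores and processes lipids, and breaks down amino acids such as tyrosine and histidine.

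The hypodermis nuclei made up 5.06% of the ctrl library (590 of 11666 nuclei, exact Clopper-Pearson interval 4.67 to 5.47%). They were 5.62% of ent-1KO nuclei (840 of 14935, 5.26 to 6.01%) and 6.06% of ent-2KO nuclei (753 of 12425, 5.65 to 6.49%). In ent-1KO;ent-2KD they were 19.7% (2590 of 13121, 19.1 to 20.4%). The share was thus highest in the library of the double loss of function, and among the other libraries the intervals of ctrl and ent-2KO did not overlap, while that of ent-1KO overlapped both. More hypodermis nuclei and fewer nuclei of other tissues cannot be told apart in a share of sorted nuclei. With each nucleus thinned to 500 UMIs, which left out no nucleus, the shares were 3.34%, 4.02%, 3.81% and 15.3% in the order ctrl, ent-1KO, ent-2KO and ent-1KO;ent-2KD, the order used for all lists of 4 values below. After thinning the interval of ctrl (3.02 to 3.69%) overlapped that of ent-2KO (3.48 to 4.16%) and not that of ent-1KO (3.71 to 4.35%), so which single knockout stood apart from ctrl changed with the thinning.

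The libraries held between 21009254 and 32714922 UMIs, and the members between 9.66% (ent-1KO) and 30.3% (ent-1KO;ent-2KD) of them. A member had a median of 3201.5, 3159.5, 3200 and 2923 UMIs, against 1364, 1680, 1640 and 1632 in the other nuclei of its library. Pairs of libraries shared between 43 and 61 cell barcodes, and at most 1 barcode per pair was a member in both.

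Most members stood well inside the rule. The median member had UMIs in 8, 9, 8 and 9 of the 10 genes, and all 10 genes were seen in 23.4%, 27.9%, 15.8% and 31.4% of members. Just inside the threshold, with 4 genes, stood 25, 41, 41 and 172 nuclei, and just outside it, with 3 genes, 52, 135, 55 and 591 nuclei. The nuclei with 4 genes had a median of 11, 7, 10 and 5 UMIs in the 10 genes, and those with 3 genes 3.5, 4, 5 and 3. The ground between members and other nuclei was therefore fullest in the ent-1KO;ent-2KD library. The transcripts of the rule genes were also more frequent in its other nuclei. F18E3.11, for example, had 18.5, 23.8, 17.1 and 56.9 CPM (UMIs of the gene in 1000000 UMIs of the nuclei summed) in the nuclei outside the rule.

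**Figure D1:**
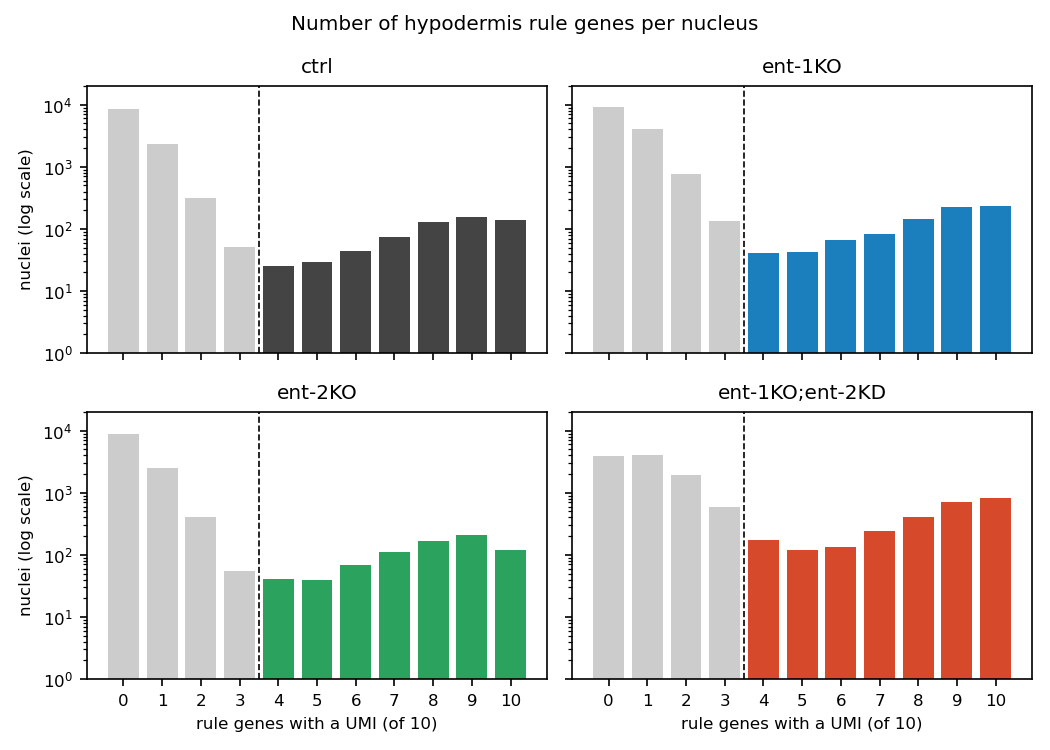
Nuclei (y axis, log scale) by the number of the 10 rule genes with a UMI (x axis), in the 4 libraries. Coloured bars right of the dashed line are the members and grey bars the other nuclei. The ent-1KO;ent-2KD library has 591 nuclei at 3 genes and 172 at 4 genes, and all libraries have most of their members at 8 to 10 genes.

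The label was checked on 8 hypodermis genes that the rule did not use. elt-3, a GATA factor of the main body hypodermis, stood at 202, 302, 259 and 269 CPM in members and at 7.36, 8.90, 7.62 and 18 CPM in the other nuclei. col-19, a collagen of the adult cuticle, stood at 6913, 10121, 7612 and 7151 CPM in members and at 643, 829, 651 and 1442 CPM in the others. Both genes were higher in members in each library. The larval cuticle genes dpy-7 and rol-6 had only 75 and 142 UMIs over all members, in each library at a higher CPM than in the other nuclei, and the collagen gene bli-1 had 372. The epidermal regulators elt-1, lin-26 and nhr-25 gave no such contrast. lin-26, which keeps cells epidermal, stood at 22.5, 23.7, 24.9 and 35.5 CPM in members against 35.8, 37, 35.4 and 42.4 CPM in the others. Of the 8 genes the label thus rests mainly on elt-3 and col-19.

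Several of the genes that mark these nuclei lie together. In the coordinates of the Ensembl annotation, str-41 (chromosome V, 7411995 to 7413059, plus strand), which encodes a putative chemoreceptor, F18E3.11 (7413482 to 7413754), F18E3.12 (7414985 to 7415254) and F18E3.13 (7416164 to 7416433) follow each other on the same strand. F25E5.8 (7435930 to 7436958) lies on that strand too, with ddo-2 (7433383 to 7435705, minus strand) before it. The smallest log2 ratio of members to other nuclei over the 4 libraries was 4.90 for str-41, 5.08, 5.19 and 4.90 for the F18E3 genes and 4.93 for F25E5.8, but 1.3 for ddo-2. Neighbours further off, gst-41 and fbxa-105, had a smallest ratio of -1.60 and -2.09. The 3 F18E3 genes are short, alike in length and adjacent, so reads could be split among them, and counting them as 1 gene left the shares at 4.96%, 5.46%, 5.82% and 19%.

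Of the 20 genes with the largest smallest ratio of members to other nuclei, grsp-2, a glycine-rich secreted protein gene, came first with 6.36. Its values in members were 596, 572, 494 and 573 CPM, so it was nearly level over the libraries. T28C6.10 overlaps it on the same strand of chromosome IV, and their reads cannot be told apart. mltn-1, a relative of the molting gene mlt-10, had a smallest ratio of 5.35 and stood at 223, 284, 262 and 330 CPM. mlt-3, named for a molting defect, had 4.89 and stood at 352, 210, 195 and 308 CPM, highest in ctrl. rab-28, a small GTPase gene, stood at 78.0, 88.9, 105 and 77.0 CPM, and the nuclear hormone receptor gene nhr-53 at 55.5, 60.8, 46.3 and 73.6 CPM. F11E6.11 varied most among the leading genes named in this paragraph, with 40.1, 91.5, 59.4 and 183 CPM.

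Transcripts of other tissues were present in the members and differed between the libraries. Of the members, 41.7%, 23.8%, 32.4% and 12% had UMIs in 4 or more of 10 germline markers, 13.6%, 7.02%, 8.10% and 24.7% in 4 or more of 10 body wall muscle markers, 61.4%, 75.1%, 49.5% and 89.2% in 4 or more of 10 intestine markers, and 0.339%, 0.952%, 0.93% and 2.78% in 4 or more of 10 neuron markers. The summed level of the germline markers was 1891, 1104, 1718 and 719 CPM in members and 3298, 3459, 3663 and 1712 CPM in the other nuclei. That of the muscle markers was 1019, 873, 1087 and 2958 CPM in members and 3689, 3001, 3693 and 10974 CPM in the others. Germline transcripts were thus lowest, and muscle and intestine transcripts highest, in the members of the ent-1KO;ent-2KD library, as in its other nuclei. Free RNA, doublets and shared expression cannot be told apart here. For this reason each comparison below is given for all genes and for hypodermis-enriched genes, meaning genes whose CPM in members was at least 4 times that in the other nuclei of the same library, in the library of the pair where the gene was higher in members. A gene thus passes through the library where it is higher. Free RNA was estimated as the summed germline marker CPM in members over that in the other nuclei, which gave 57.4%, 31.9%, 46.9% and 42% of member UMIs. The filter can therefore tilt the split of directions among these genes. Their counts and shares below are a description only. The free RNA estimate counts every germline transcript in members as free, also those of doublets. It may thus be too high, and the subtraction used below may take out too much.

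Clustering of the members alone gave 15 sub-clusters, of 20 to 1012 nuclei. Sub-clusters 4 (571 nuclei), 6 (360), 11 (136), 12 (97), 13 (80), 14 (56) and 15 (20) carried markers of germline, muscle, intestine, neuron or sperm. Sub-cluster 10 (137) raised no such list. It was left out with them by a choice made after its leading genes, among them Y46H3C.7 and Y9D1A.2, had been seen. These 8 held 1457 nuclei. Sub-cluster 15, left out for its intestine markers (6 of 9 raised by a log2 ratio of 1), also raised 6 of 6 seam cell genes. The seam cell list summed to 5680 CPM there and to 98.2 CPM in the other members. Leaving this sub-cluster out thus also took out nuclei with seam cell transcripts. The 7 kept sub-clusters held 3316 nuclei. elt-3 stood between 207 and 559 CPM in the kept sub-clusters and between 55.9 and 224 CPM in those left out. They were led by mab-5, a Hox gene of the posterior body (sub-cluster 1, 1012 nuclei), by F22F4.5 and the collagen genes col-179 and col-101 (2, 820 nuclei), by ugt-40 with dach-1 and the anterior regulator vab-3 (3, 579 nuclei), by col-146 and col-7 (5, 386 nuclei), by lin-31, a forkhead gene known from the vulval precursor cells (7, 206 nuclei), by col-153 and the histidine ammonia-lyase gene haly-1 (8, 158 nuclei), and by nas-38 and col-88 (9, 155 nuclei). These genes defined the sub-clusters and are no result. Sub-cluster sizes were not compared between libraries, since some of the leading genes differ between them. Every library had members in each sub-cluster, with at least 18 nuclei in each of the 7 kept.

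ent-1, the knocked-out transporter gene, was low in the members of both libraries that lack it. It had 223, 27, 212 and 68 UMIs, which is 93.0, 8.54, 73.2 and 7.0 CPM. Relative to ctrl the log2 ratio was -3.42 (-4.08 to -2.87) in ent-1KO and -3.73 (-4.15 to -3.34) in ent-1KO;ent-2KD. ent-2, a transporter of the same family, had only 19, 41, 8 and 132 UMIs in members, or 7.93, 13, 2.76 and 13.6 CPM, under the minimum used below. It was lowest in ent-2KO. In ent-1KO;ent-2KD it stood at 13.6 CPM, not lower than in ctrl (7.93 CPM, on 19 UMIs) or in ent-1KO (13 CPM). A knockdown of ent-2 was thus not seen in the RNA of these nuclei. The deleted stretches were not mapped to the counted 3′ ends.

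For the comparisons UMIs were summed over members, 0.5 UMI was added to each count and the log2 ratio of CPM was taken. Genes needed 20 CPM in 1 of the 2 libraries and 50 UMIs over both. A gene is called higher or lower here by size alone, from a log2 ratio of 1 in either direction. The 3 comparisons to ctrl share the ctrl library, and 2 of the 4 comparisons use the ent-1KO library, so their values stand side by side and are not independent of each other.

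The first comparison set ent-1KO;ent-2KD beside ctrl, libraries that differ in strain and in bacteria, and these cannot be told apart here. A gene of fatty acid oxidation, acdh-2, was far lower, and small genes with no known role, such as F57G8.7, were higher. Of 7498 genes past the minimum, 694 (9.26%) were higher and 1057 (14.1%) lower, around a median log2 ratio of -0.24. With the ratios shifted to a median of 0, 984 were higher and 588 lower, and with each nucleus counted the same 520 were higher and 1340 lower, so the balance of the directions turns with the scaling. Of the 694 higher genes, 68.7% had more CPM in the other nuclei than in members, and of the 1057 lower genes 94.4%. Among the 935 hypodermis-enriched genes 98 (10.5%) were higher and 37 (3.96%) lower, with a median of 0.17. In the other nuclei 686 of the 694 and 1034 of the 1057 had a ratio of the same sign, as the plot of each gene in both shows.

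**Figure D2:**
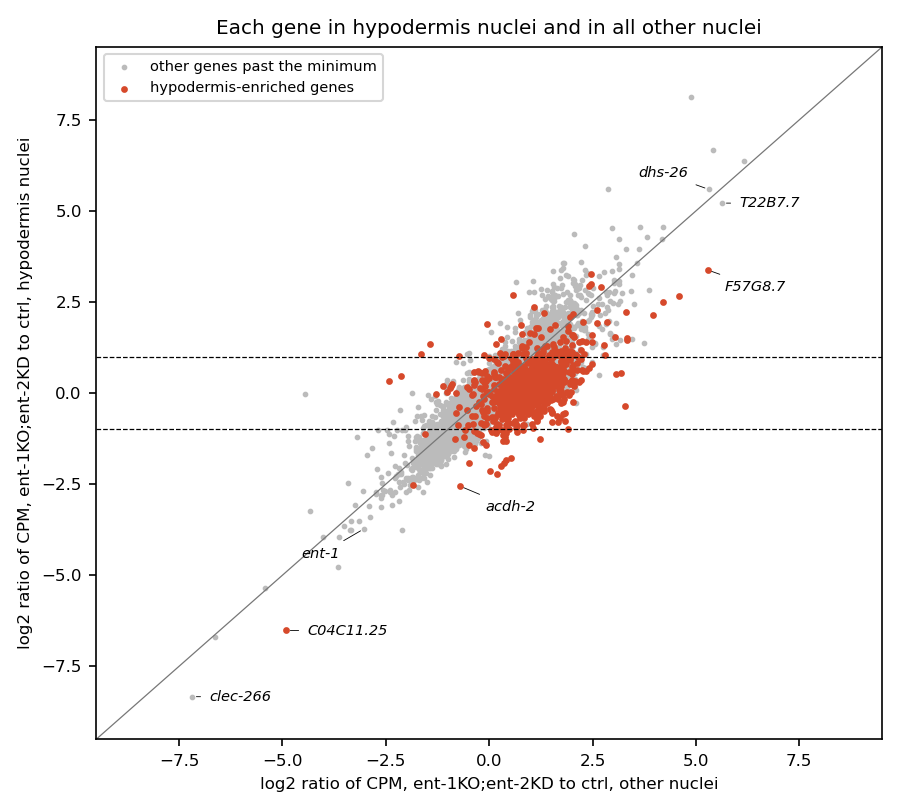
Log2 ratio of CPM of ent-1KO;ent-2KD to ctrl for each gene past the minimum, in the other nuclei (x axis) and in hypodermis nuclei (y axis). Red points are the 935 hypodermis-enriched genes and grey points the other genes, the diagonal is equality and the dashed lines mark the size from which a gene was called. acdh-2 stands at -2.56 in hypodermis nuclei and at -0.71 in the others, and clec-266 at -8.34 and -7.18.

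acdh-2 encodes an enzyme of the acyl-CoA dehydrogenase family, which acts in fatty acid oxidation. It had 5683, 4447, 3213 and 3920 UMIs in members, which is 2371, 1407, 1109 and 403 CPM. It was highest in ctrl, lower in both single knockouts and lowest in ent-1KO;ent-2KD, and none of the intervals overlapped. The log2 ratio of ent-1KO;ent-2KD to ctrl was -2.56 (-2.61 to -2.50), that of ent-1KO -0.75 (-0.81 to -0.70) and that of ent-2KO -1.1 (-1.16 to -1.03). In the other nuclei acdh-2 stood at 208, 134, 79.9 and 127 CPM, a ratio of -0.71. The gene was lower in ent-1KO;ent-2KD than in ctrl in all 7 kept sub-clusters, from 5111 to 781 CPM in sub-cluster 1 and from 3152 to 114 CPM in sub-cluster 5, with log2 ratios between -4.78 and -1.84.

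Other hypodermis-enriched genes were lower in ent-1KO;ent-2KD. C04C11.25 had 56, 50, 28 and 2 UMIs (23.4, 15.8, 9.67 and 0.206 CPM), and its log2 ratio was -6.52 with an interval of -9.91 to -4.91. It was nearly absent from 1 library and present in the other 3. ugt-9, a UDP-glucuronosyltransferase gene of detoxification, stood at 38.4, 41.5, 47.0 and 6.69 CPM, a log2 ratio of -2.52 (-3.0 to -2.05). C56E10.3, with 106, 140, 242 and 39.4 CPM, was highest in ent-2KO and lowest in ent-1KO;ent-2KD. Y41G9A.10 and Y41G9A.5, both on chromosome X, were lower too, with ratios of -2.02 (159, 116, 78.0 and 39.3 CPM) and -1.77 (37.6, 30.1, 22.8 and 11 CPM). Y17G9A.4, the chemoreceptor gene srv-7, the noncoding RNA linc-96, F43D2.3, C55A6.18 and Y75B8A.57 completed the named set, with ratios between -2.23 and -1.43.

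Among the hypodermis-enriched genes that were higher in ent-1KO;ent-2KD, F57G8.7 came first. It had 18, 51, 28 and 779 UMIs, or 7.51, 16, 9.67 and 80.2 CPM, and a log2 ratio of 3.38 (2.75 to 4.18). It was high in 1 library and low in the other 3, and the UMIs of ent-1KO;ent-2KD in the kept sub-clusters came mostly from sub-clusters 1 (330), 2 (130) and 5 (123). fip-6, of the fungus-induced protein family of the epidermis, stood at 3.76, 10.4, 12.4 and 38.2 CPM, a ratio of 3.27 (2.41 to 4.49). che-13, which encodes an intraflagellar transport protein of cilia, stood at 26.7, 66.8, 40.7 and 139 CPM, a ratio of 2.37 (2.02 to 2.77). The neighbours F56D6.9 and F56D6.8 on chromosome IV stood at 8.34, 11.1, 3.45 and 54.6 CPM and at 9.18, 6.01, 6.21 and 53.0 CPM, with ratios of 2.68 and 2.50. Both were low in all 3 libraries on L4440 bacteria. txt-11, W06G6.17, T20D4.3, F59C6.8, the pseudogene W10G11.4, F56C3.9 and lgc-58, of the ligand-gated ion channel family, had ratios between 2.19 and 2.99.

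**Figure D3:**
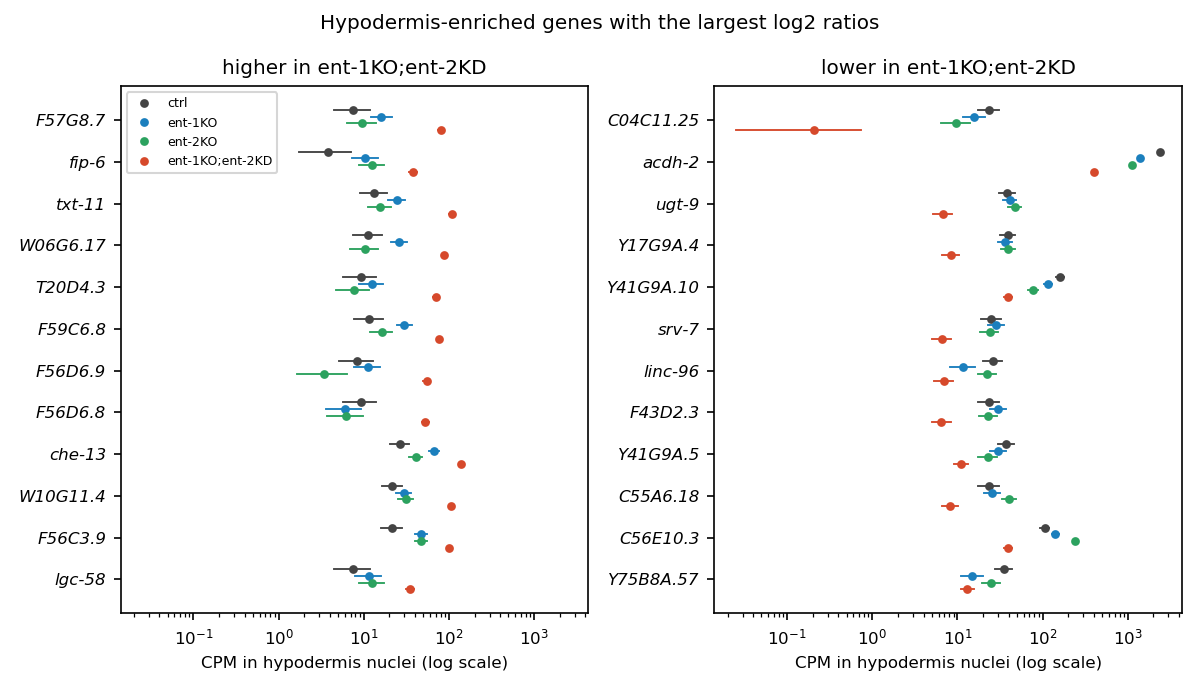
CPM in hypodermis nuclei (x axis, log scale) of the 12 hypodermis-enriched genes with the largest ratios of ent-1KO;ent-2KD to ctrl (left) and the 12 with the smallest (right), 1 point per library with its exact 95% Poisson interval. The ent-1KO;ent-2KD point stands right of the other 3 for each gene on the left and left of them for each gene on the right.

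2 more genes, dhs-26 and T22B7.7, were far higher in ent-1KO;ent-2KD but did not pass as hypodermis-enriched. dhs-26, a short-chain dehydrogenase gene, had 11, 5, 41 and 2246 UMIs in members (4.59, 1.58, 14.2 and 231 CPM), against 1.61, 1.49, 1.66 and 65.1 CPM in the other nuclei, a log2 ratio of 5.59 (4.81 to 6.66). T22B7.7 had 21, 75, 81 and 3237 UMIs (8.76, 23.7, 28 and 333 CPM), against 3.55, 4.16, 4.43 and 178 CPM, a ratio of 5.21 (4.63 to 5.94). Both were high in 1 library, inside and outside the hypodermis nuclei. T22B7.7 was higher in each of the 7 kept sub-clusters, between 131 and 573 CPM in ent-1KO;ent-2KD against 0 to 32.3 CPM in ctrl. dhs-26 was seen mainly in sub-clusters 1, 2 and 7 (459, 354 and 499 CPM), and stood between 34 and 39.8 CPM in sub-clusters 3, 5, 8 and 9.

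**Figure D4:**
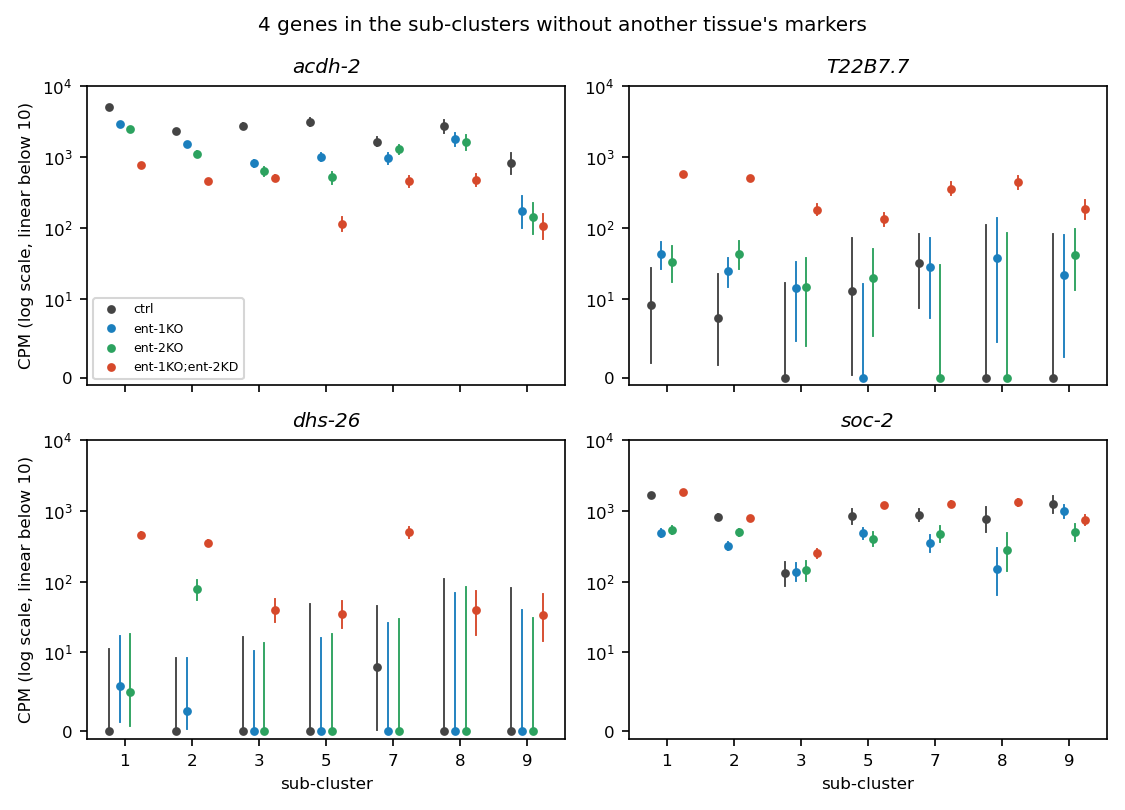
CPM (y axis, log scale that is linear below 10) of acdh-2, T22B7.7, dhs-26 and soc-2 in the 7 kept sub-clusters (x axis), 1 point per library with its exact 95% Poisson interval. acdh-2 is lowest and T22B7.7 and dhs-26 are highest in ent-1KO;ent-2KD in each sub-cluster, and soc-2 is lower in ent-1KO and ent-2KO than in ctrl in all but sub-cluster 3.

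The remaining genes with the largest ratios of ent-1KO;ent-2KD to ctrl were mostly more abundant in other nuclei. flp-11, which encodes FMRFamide-like neuropeptides, had 11, 223, 21 and 1106 UMIs in members and 18.1, 161, 52.9 and 228 CPM in the other nuclei. The neuron markers summed to 147, 187, 151 and 288 CPM in members and to 410, 342, 371 and 708 CPM in the other nuclei. The part of neuron RNA in the flp-11 values was not tested. C32H11.4, F36H12.3, C17F3.1, math-3, C08F11.13, F53A9.8, K05F1.9 and C17H12.8 had ratios between 3.95 and 6.37, on 1 to 11 UMIs in ctrl and with counting intervals between 2.62 and 12.26, and more CPM in the other nuclei of ent-1KO;ent-2KD than in its members. The histone gene his-40 had 5.84, 33.9, 5.52 and 119 CPM in members and 8.01, 27.6, 7.36 and 114 CPM in the others. Among the lower genes, C05D9.12 had 902, 678, 699 and 22.2 CPM in members and a ratio of -5.34, and a ratio of -5.42 in the other nuclei, and its ratio in members turned to 4.11 when free RNA was subtracted, which left it at 0 in ctrl. clec-266, a C-type lectin gene, had 119 UMIs in ctrl and 1 in ent-1KO;ent-2KD, a ratio of -8.34 (-14.23 to -6.41), and Y82E9BR.17 had 63 and 2, a ratio of -6.69 (-10.07 to -5.08). atz-1, C35E7.5, the caveolin gene cav-1, Y54G2A.42, K11D9.7, F02H6.1 and the bZIP gene zip-8 had ratios between -4.78 and -3.66, at higher CPM in the other nuclei of ctrl. The germline markers stood at 3298 CPM there against 1712 CPM in the other nuclei of ent-1KO;ent-2KD. The part of germline RNA in these ratios was not tested.

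In ent-1KO, compared with ctrl, the collagen genes sqt-1, sqt-2, sqt-3 and rol-8 were higher and the signalling gene soc-2 lower. Of 7155 genes 151 (2.11%) were higher and 243 (3.4%) lower, with a median of -0.30. After the shift to a median of 0 the counts were 437 and 38, and with each nucleus counted the same 134 and 118, so the split of directions again depends on the scaling. Of the 243 lower genes 91.4% had more CPM in other nuclei. Among 1220 hypodermis-enriched genes 94 (7.7%) were higher and 11 (0.902%) lower, with a median of 0.36.

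In ent-2KO, of 7132 genes 152 (2.13%) were higher and 37 (0.519%) lower, with a median of -0.12. Among 1170 hypodermis-enriched genes 100 (8.55%) were higher and 11 (0.94%) lower, with a median of 0.27. The warthog gene wrt-6, several collagen genes and F33D4.6 were higher, and the astacin protease gene nas-27 was lower. Compared within the ent-1KO strain, ent-2 RNAi bacteria to L4440 bacteria, 522 of 7283 genes (7.17%) were higher and 388 (5.33%) lower, with a median of 0.03, and with each nucleus counted the same 378 were higher and 754 lower. Of the 1102 hypodermis-enriched genes there, 38 (3.45%) were higher and 108 (9.8%) lower, with a median of -0.21.

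soc-2, a leucine-rich repeat scaffold of Ras signalling, gave a pattern that the double loss of function did not share. It had 1941, 1023, 1078 and 8330 UMIs, or 810, 324, 372 and 857 CPM. Both single knockouts were low, and ctrl and ent-1KO;ent-2KD high. Against ctrl its log2 ratio was -1.32 (-1.43 to -1.21) in ent-1KO, -1.12 (-1.23 to -1.01) in ent-2KO and 0.08 (0.01 to 0.15) in ent-1KO;ent-2KD. ptr-22, of the patched-related receptor family, stood at 280, 118, 164 and 156 CPM, highest in ctrl, with a ratio of -1.25 (-1.43 to -1.06) in ent-1KO. W01C9.2, col-65 and col-153 were lowest in ent-1KO as well, with ratios of -1.76, -1.53 and -1.24 on 36, 28 and 36 UMIs. col-135 and E03H12.5, with ratios of -2.53 and -2.01 on 11 and 17 UMIs, had more CPM in the other nuclei of both libraries, and both ratios changed sign on 5 or fewer UMIs, that of col-135 without nuclei that carry other tissues' markers (1.12) and that of E03H12.5 without such sub-clusters (1.50).

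F33D4.6 was nearly absent from ctrl, with 1, 90, 72 and 80 UMIs (0.417, 28.5, 24.9 and 8.23 CPM). Relative to ctrl, the log2 ratio was 5.52 (3.58 to 11.4) in ent-1KO, 5.32 (3.37 to 11) in ent-2KO and 3.73 (1.78 to 9.62) in ent-1KO;ent-2KD. Of its UMIs, 82 of 90 in ent-1KO, 71 of 72 in ent-2KO and 63 of 80 in ent-1KO;ent-2KD came from sub-cluster 9, which had 18, 35, 47 and 55 nuclei and which this gene helped to define. Without nuclei that carry other tissues' markers, 1 UMI was left in ctrl and 0 in ent-1KO, which gives no direction. pals-26, of the pals family induced by intracellular pathogens, was high in 1 library alone, with 1, 67, 3 and 15 UMIs, and had 4.3, 4.33, 3.58 and 4.55 CPM in the other nuclei. Its ratio was 5.09 (3.14 to 11) in ent-1KO to ctrl and -3.74 in ent-1KO;ent-2KD to ent-1KO. The neuronal genes flp-1, nlp-49 and zig-2, with ratios of 5.65, 4.62 and 5.03 in ent-1KO (the last on 1 UMI in ctrl, 3.07 to 10.93), were also higher in the other nuclei of that library, at 192, 86.0 and 20.8 CPM against 14.5, 8.33 and 1.72 CPM in ctrl.

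In ent-2KO, wrt-6, a hedgehog-related gene, had 3, 43, 60 and 83 UMIs (1.25, 13.6, 20.7 and 8.54 CPM), a log2 ratio of 3.84 (2.43 to 6.37). It was low in ctrl alone. Of its UMIs, 38 of 43 in ent-1KO, 49 of 60 in ent-2KO and 56 of 83 in ent-1KO;ent-2KD came from the 35, 47 and 55 nuclei of sub-cluster 9. R02E4.3 stood at 7.51, 14.2, 30.0 and 12.9 CPM, a ratio of 1.97 (1.26 to 2.82), highest in ent-2KO. nas-27, of the astacin metalloproteases, had 52, 32, 13 and 48 UMIs (21.7, 10.1, 4.49 and 4.94 CPM), a ratio of -2.23 (-3.27 to -1.38). It was highest in ctrl. prx-3, a peroxisome biogenesis gene, stood at 67.6, 51.6, 23.1 and 32.2 CPM, a ratio of -1.54 (-1.98 to -1.13), while B0563.5 and R13H4.5 were lower in ent-2KO alone, with ratios of -1.59 and -1.31. Y102A5C.6 and the CLASP gene cls-3 were lower than in ctrl in the other 3 libraries, with ratios in ent-2KO of -2.31 and -2.04 and in ent-1KO of -2.75 and -2.60, but stood at 200 and 103 CPM in the other nuclei of ctrl against 112 and 48.8 CPM in its members, and the ratio of Y102A5C.6 changed sign when free RNA was subtracted, which left it at 0 in ctrl. K10C2.14 (5.39, on 2 UMIs in ctrl, 3.82 to 8.77), C45G9.6 (3.06) and Y62H9A.3 (2.41) were higher, with 106, 16 and 150 CPM in the other nuclei of ent-2KO and 43.5, 32.8 and 65.3 CPM in its members, and Y47H10A.4 was lower, on 14 UMIs.

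With the strain held the same, the ent-2 RNAi bacteria went with lower levels of ugt-9 (-2.63), M7.12 (-2.67), C43G2.30 (-2.65) and the trehalase gene tre-5 (-2.35), beside pals-26. tre-5 had 38, 103, 32 and 62 UMIs (15.9, 32.6, 11 and 6.38 CPM), and C43G2.30 39, 117, 32 and 57 UMIs. Both were highest in ent-1KO and lowest in ent-1KO;ent-2KD. The cytochrome P450 gene cyp-34A2 was higher, at 5.84, 4.43, 14.8 and 22.8 CPM, a ratio of 2.32. The genes with the largest ratios after dhs-26 (7.05) were C17F3.3, T27A3.5, C15A11.2 and H05L14.1, with ratios between 5.43 and 5.81 on 1 UMI each in ent-1KO, and more CPM in other nuclei. The histone gene his-63 was lower with -3.24, and also in the other nuclei. RNAi of ent-2 and the change of bacteria cannot be told apart in this pair.

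Collagen genes took a large part of the RNA of these nuclei. The 159 numbered col genes summed to 11.9%, 19%, 14.2% and 12.3% of member UMIs. They were highest in ent-1KO. Estimated free RNA was 57.4% of member UMIs in ctrl and 31.9% in ent-1KO, and its part in these shares was not tested. Of the col genes past the minimum, 12 of 82 were higher and 3 lower in ent-1KO to ctrl, with a median of 0.59, and 24 of 81 were higher and 0 lower in ent-2KO, with a median of 0.79, beside shares of 2.11% and 2.13% higher over all genes and of 7.7% and 8.55% over the hypodermis-enriched genes. In ent-1KO;ent-2KD 6 of 79 were higher and 1 lower, with a median of 0.05, beside 9.26% and 14.1% of all genes. Without the sub-clusters that carry other tissues' markers, 4 of 83 were higher in ent-1KO, 17 of 83 in ent-2KO and 5 of 82 in ent-1KO;ent-2KD. Of all genes 1.67%, 2.39% and 5.64% were then higher, in this order. With free RNA subtracted, 5 of 83 were higher and 4 lower in ent-1KO, with a median of 0.10. In ent-2KO 11 were higher and 1 lower (median 0.55), and in ent-1KO;ent-2KD 3 were higher and 3 lower (median -0.34). The shares of all genes higher were then 17.5%, 12.7% and 24.1%. col-129 was higher in ent-1KO;ent-2KD at 2249, 4231, 3844 and 4886 CPM, a ratio of 1.12 (1.08 to 1.16), and col-95 lower at 489, 825, 534 and 244 CPM, with a ratio of -1.0. The adult collagen genes col-7 (29.6, 64.6, 53.5 and 58.0 CPM) and col-62 (26.7, 63.6, 42.5 and 46.1 CPM) were lowest in ctrl, with ratios of 1.12 and 1.24 in ent-1KO. Both calls were lost without the sub-clusters that carry other tissues' markers, where the largest ratio of the 3 adult collagen genes past the minimum was 0.88, and with free RNA subtracted, where it was 0.69.

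Of the collagen genes whose mutants have a named body shape, those of the sqt and rol names were lowest in ctrl. sqt-1, whose mutants are squat or roll, had 14, 131, 90 and 181 UMIs, or 5.84, 41.5, 31.1 and 18.6 CPM. It was lowest in ctrl and highest in ent-1KO, with ratios of 2.78 (2.03 to 3.74) in ent-1KO, 2.37 (1.59 to 3.34) in ent-2KO and 1.63 (0.89 to 2.57) in ent-1KO;ent-2KD. sqt-3 followed, at 12, 60.1, 40.4 and 25.2 CPM, as did rol-8, at 12.9, 61.7, 27.3 and 27.4 CPM, and lon-3, a body length collagen, at 10.4, 26.3, 38.3 and 22.1 CPM. In all, 5 of 10 were higher in ent-1KO, 4 of 10 in ent-2KO and 3 of 9 in ent-1KO;ent-2KD, beside 2.11%, 2.13% and 9.26% of all genes and 7.7%, 8.55% and 10.5% of the hypodermis-enriched genes. Sub-cluster 9 held 117 of the 131 sqt-1 UMIs of ent-1KO, 82 of 90 in ent-2KO and 131 of 181 in ent-1KO;ent-2KD, but 7 of 14 in ctrl. bli-2, a gene of the struts of the adult cuticle, had 1, 45, 52 and 70 UMIs, 34, 46 and 59 of them in that sub-cluster in the 3 libraries other than ctrl. dpy-17 went the other way, with 65.5, 38.3, 48.3 and 20.0 CPM and a ratio of -1.72 (-2.03 to -1.40) in ent-1KO;ent-2KD, and was level in the other nuclei at 19.8, 16.6, 19.5 and 19.8 CPM.

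**Figure D5:**
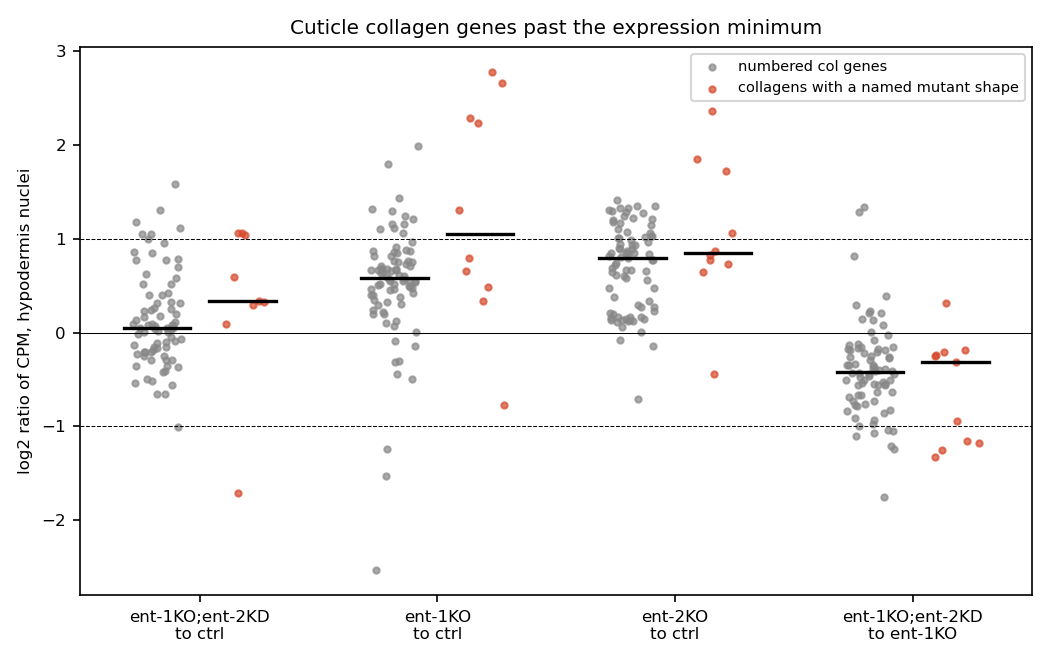
Log2 ratio of CPM in hypodermis nuclei (y axis) of collagen genes past the minimum, in the 4 comparisons (x axis), 1 point per gene. Grey points are numbered col genes, red points collagens with a named mutant shape, and black bars are medians, which for the col genes stand at 0.05, 0.59, 0.79 and -0.42.

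Some of the enzymes and other proteins of the cuticle were higher in the single knockouts. dpy-18, a subunit of the prolyl hydroxylase of collagen, stood at 12.9, 29.7, 31.1 and 28.3 CPM, with ratios of 1.19, 1.25 and 1.11 in ent-1KO, ent-2KO and ent-1KO;ent-2KD. It was lowest in ctrl. cut-2, a cuticlin, stood at 12.9, 32.0, 38.7 and 14 CPM, and the tyrosinase gene tyr-2 at 17.1, 36.4, 38.7 and 20.7 CPM, both called in the single knockouts alone. Of the cut-2 UMIs, 80.6%, 93.1%, 92.9% and 76.5% came from the 18, 35, 47 and 55 nuclei of sub-cluster 9. In ent-1KO the calls of cut-2 and tyr-2 were lost without the sub-clusters that carry other tissues' markers and with free RNA subtracted, while that of dpy-18 was not. Of this list 3 of 10 were higher in ent-1KO and in ent-2KO, beside 2.11% and 2.13% of all genes. In ent-1KO;ent-2KD 2 of 11 were, with pdi-2, a protein disulfide isomerase, as the other, beside 9.26% of all genes, and 0 of the 3 that were hypodermis-enriched. Of the 20 molting genes none of the 6 that passed the minimum was called in any comparison to ctrl. Beside this, 9.26% of all genes were higher and 14.1% lower in ent-1KO;ent-2KD, 2.11% and 3.4% in ent-1KO, and 2.13% and 0.519% in ent-2KO.

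The antimicrobial nlp peptide genes, which the epidermis makes on fungal infection and injury, summed to 6772, 9279, 7981 and 8826 CPM, of which nlp-33, a rule gene, gave 3016, 4007, 3139 and 4316 CPM. Of the 8 genes past the minimum beside nlp-33, 2 were higher in each comparison to ctrl and none lower, against 9.26%, 2.11% and 2.13% of all genes higher in ent-1KO;ent-2KD, ent-1KO and ent-2KO. nlp-25 stood at 57.2, 167, 158 and 144 CPM, low in ctrl alone, with ratios of 1.55, 1.46 and 1.33. nlp-31 stood at 185, 410, 332 and 453 CPM, and nlp-29, the best known member, at 279, 453, 517 and 303 CPM, highest in ent-2KO. With free RNA subtracted, none was called in ent-1KO;ent-2KD or ent-1KO, and nlp-25 alone in ent-2KO. Without the sub-clusters that carry other tissues' markers nlp-31 was no longer called in ent-1KO. Of the caenacins, related peptides, cnc-4 was higher in ent-1KO;ent-2KD at 28.4, 56.6, 40.0 and 63.6 CPM, 1 of 4 genes past the minimum beside 9.26% of all genes. With free RNA subtracted cnc-4 was no longer called.

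The hedgehog-related genes, which encode secreted proteins of the cuticle-forming epithelia, were called most in ent-2KO, where 4 of 10 were higher and 0 lower, beside 2.13% of all genes and 8.55% of the hypodermis-enriched genes. Beside wrt-6 these were wrt-3 (17.9, 30.1, 51.1 and 21.4 CPM), grl-15 (19.2, 31.3, 51.4 and 19.9 CPM) and grd-14 (8.76, 11.1, 24.2 and 9.67 CPM), each highest in ent-2KO. In ent-1KO 1 of 9 and in ent-1KO;ent-2KD 1 of 8 was higher, grd-10 in both, beside 2.11% and 9.26% of all genes. mua-3, which anchors the epidermis to the cuticle, was also highest in ent-2KO, at 87.6, 139, 221 and 135 CPM with a ratio of 1.33, 1 of 9 attachment genes beside 2.13% of all genes. lin-42, the period homologue that times the molts, had 18, 34, 58 and 56 UMIs and a ratio of 1.39 in ent-2KO. It was the only one called of 8 hypodermal regulators, beside 2.13% of all genes higher. Of 14 patched-related receptors 0 were called in ent-1KO;ent-2KD, beside 9.26% higher and 14.1% lower of all genes. In ent-2KO 0 were called as well, beside 2.13% and 0.519%. ptr-22 was lower in ent-1KO, beside 3.4% of all genes, a call lost when the ratios were shifted to a median of 0.

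Of 15 fatty acid genes past the minimum 6 were called higher in ent-1KO;ent-2KD and none lower, beside 9.26% of all genes. Only 1 of the 15 was hypodermis-enriched, and it was not called. The called genes were acs-22, an acyl-CoA synthetase, the elongases elo-5 and elo-6, and the desaturases fat-1, fat-2 and fat-3. acs-22 stood at 25.9, 56.6, 52.1 and 80.0 CPM, lowest in ctrl and highest in ent-1KO;ent-2KD. elo-5 stood at 91.0, 148, 79.8 and 257 CPM in members and at 241, 312, 155 and 474 CPM in the other nuclei, where intestine markers are also higher. fat-2 stood at 192, 277, 248 and 480 CPM in members and at 256, 290, 206 and 674 CPM in the other nuclei. Without the sub-clusters that carry other tissues' markers 6 of 16 were higher and none lower, but 4 of 6 intestine markers and 5 of 10 body wall muscle markers were still called higher there. The part of intestine RNA in these values was not tested. fat-5, a palmitoyl-CoA desaturase, was higher in the single knockouts alone, at 16.3, 46.8, 39.4 and 19.7 CPM, and fat-6, a stearoyl-CoA desaturase, stood at 237, 489, 447 and 429 CPM, lowest in ctrl.

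Genes of purine synthesis and salvage, which supply the nucleotides of RNA and DNA, were higher in ent-1KO;ent-2KD for 5 of 13 genes past the minimum, with adal-1 lower, beside 9.26% higher and 14.1% lower of all genes, 0 of 9 being called in ent-2KO and 1 in each direction of 9 in ent-1KO. Of these, atic-1, pfas-1, ppat-1 and paic-1 encode enzymes of de novo synthesis. atic-1 had 18, 42, 40 and 474 UMIs in members (7.51, 13.3, 13.8 and 48.8 CPM) and 34.2, 31, 31.9 and 101 CPM in the other nuclei, with ratios of 2.66 (2.02 to 3.47) and 1.55. pfas-1 stood at 6.26, 3.48, 10.4 and 30.5 CPM, ppat-1 at 6.26, 7.28, 5.52 and 25.5 CPM and paic-1 at 7.51, 6.65, 6.91 and 21 CPM. All were high in ent-1KO;ent-2KD alone, and each had more CPM in the other nuclei of every library. Without the sub-clusters that carry other tissues' markers, 2 of the 9 that then passed the minimum were higher, atic-1 and T19B4.3, and adal-1 lower. With free RNA subtracted none of the 4 de novo genes was called, because none then passed the minimum. The subtraction left each at 0 UMIs in ctrl. In ent-1KO;ent-2KD it left atic-1 at 63.5, pfas-1 at 82.4, ppat-1 at 4.66 and paic-1 at 49.6 UMIs. That setting cannot decide whether they differ. pnp-1, a purine nucleoside phosphorylase, behaved differently, at 38.4, 85.8, 46.3 and 77.6 CPM, higher in ent-1KO as well. adal-1, an adenosine deaminase-like gene, stood at 64.7, 31, 54.9 and 25.2 CPM, lower in both libraries without ent-1, in ent-1KO only as long as those sub-clusters were kept and the ratios were not shifted.

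Of the tyrosine and histidine breakdown genes 2 of 10 were higher in ent-1KO;ent-2KD, fah-1 (27.1, 47.2, 38.3 and 69.4 CPM), the last enzyme of tyrosine breakdown, and gst-42, beside 9.26% of all genes, and the call of gst-42 was lost without the sub-clusters that carry other tissues' markers and with free RNA subtracted, while hpd-1 stood at 249, 391, 220 and 200 CPM, highest in ent-1KO. Of the DBL-1 pathway, a TGF-beta signal that sets body size through the hypodermis, 0 of 9 were called in each comparison to ctrl. Of all genes 9.26% were higher and 14.1% lower in ent-1KO;ent-2KD, 2.11% and 3.4% in ent-1KO, and 2.13% and 0.519% in ent-2KO. A count of 0 in 9 genes is thus near the share of all genes in the single knockouts. Ribosomal protein genes were higher in ent-1KO;ent-2KD for 10 of 75 genes (beside 9.26% of all genes) and lower for rpl-11.1 and rpl-24.2, with a median of 0.81, against medians of 0.19 and 0.06 in ent-1KO and ent-2KO. This count depends on the setting. It was 42 higher and 0 lower with the ratios shifted to a median of 0, and 5 higher and 2 lower without the sub-clusters that carry other tissues' markers. With free RNA subtracted 74 of 74 were higher in each comparison to ctrl, since the subtraction left 72 of the 75 at 0 in ctrl. rpl-25.1 stood at 73.9, 100, 83.9 and 277 CPM and its ratio was 1.90 in members and 1.55 in the other nuclei. Of 9 heat shock and stress genes 3 were higher in ent-1KO;ent-2KD and 2 lower, beside 9.26% and 14.1% of all genes. The chaperone genes hsp-4 (220, 202, 200 and 97.8 CPM) and hsp-110 were lower in ent-1KO;ent-2KD, with ratios of -1.17 and -1.13 in members and of -1.31 and -1.02 in the other nuclei. Neither was called with the ratios shifted to a median of 0, and with free RNA subtracted hsp-4 turned and was called higher, on 10.3 UMIs left in ctrl and 333 in ent-1KO;ent-2KD. Of the higher genes, gst-4 (19.6, 28.8, 22.8 and 55.3 CPM), a glutathione S-transferase of the oxidative stress response, had 7.52, 8.12, 8.39 and 27.9 CPM in the other nuclei. gst-10, of the same enzyme family, and the metallothionein gene mtl-2 had ratios of 2.01 and 3.38, mtl-2 on 5 UMIs in ctrl, and both stood higher in the other nuclei of ent-1KO;ent-2KD than in its members. gpdh-1, the glycerol synthesis gene of osmotic stress, had 25, 38, 46 and 246 UMIs and a ratio of 1.25, the only one called of 8 osmotic stress genes, beside 9.26% of all genes. Its call was lost without the sub-clusters that carry other tissues' markers, where the largest ratio of the list was 0.73, and with free RNA subtracted, where it was 0.84.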

How the data were processed

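The data were deposited by the authors as raw UMI counts per gene and barcode, read here without normalization. The submitters' notes name Cell Ranger 6.0 and the matrix header 6.1.2, with the WS282 genome; counting of introns is not given in the sources used here. The methods of the study name DoubletFinder, but the deposited barcodes are not said to be free of doublets, and no doublet caller was run here. UMIs of members were summed per library and scaled to CPM. With 1 library per condition no test was run. The members and gene lists were chosen with earlier results of these data known. Genes were named by rule (the rule genes, ent-1 and ent-2, the 20 leading genes, the 12 largest and 12 smallest log2 ratios of ent-1KO;ent-2KD to ctrl and the 5 largest and 5 smallest of the others, with ent-1KO;ent-2KD to ent-1KO added later, also among hypodermis-enriched genes, a restriction added after seeing the data, and each library holding 1 UMI or more, and for ent-1KO;ent-2KD to ctrl a size beyond the spread of the other 3 libraries) or as the highest, lowest or best known of a list. Sub-clusters came from 20 components of 1500 genes centred within libraries, 15 neighbours and Leiden at resolution 0.6. Scripts were tested on simulated data, run with scipy 1.17.1, numpy 2.4.6, pandas 2.3.3 and Python 3.11.15, and with scikit-learn 1.9.0, igraph 0.11.9, leidenalg 0.10.2 and matplotlib 3.10.9.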

Additional observations from a re-analysis of the deposited data

How the results depend on the processing

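No paired analysis was possible because each condition has 1 library. The share of hypodermis nuclei stayed highest in ent-1KO;ent-2KD under each alternative. In the order ctrl, ent-1KO, ent-2KO and ent-1KO;ent-2KD it was 5.50%, 6.53%, 6.5% and 24.2% with 3 or more rule genes, 4.84%, 5.35%, 5.73% and 18.4% with 5 or more, 3.34%, 4.02%, 3.81% and 15.3% after thinning, and 19% in ent-1KO;ent-2KD with the F18E3 genes as 1. Without nuclei that carry markers of another tissue, 160 of 3036, 170 of 1786, 285 of 3306 and 233 of 1037 nuclei were members, or 5.27%, 9.52%, 8.62% and 22.5%. Most of the 11666, 14935, 12425 and 13121 nuclei carried such markers, so these are shares of small remnants. The count of genes called in ent-1KO;ent-2KD to ctrl was 1751, and 8677 without a minimum, 349 without those nuclei and 135 among hypodermis-enriched genes. In ent-1KO to ctrl it was 394, and 628 with 10 CPM and 20 UMIs, 6446 without a minimum, 224 with 3 or more rule genes, 984 with free RNA subtracted, 128 without those nuclei, 252 with each nucleus counted the same and 105 among hypodermis-enriched genes. In ent-2KO to ctrl it was 189, and 368, 6011, 685 and 111 with the lower minimum, without a minimum, with free RNA subtracted and among hypodermis-enriched genes. In ent-1KO;ent-2KD to ent-1KO it was 910, and 1557 and 7885 with the lower and no minimum, 358 without those nuclei and 146 among hypodermis-enriched genes. Leaving out 8 sub-clusters, chosen after seeing the data as was the restriction to hypodermis-enriched genes, gave 386 higher and 1539 lower genes in ent-1KO;ent-2KD to ctrl.

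The subtraction took 57.4%, 31.9%, 46.9% and 42% of member UMIs as free RNA, which may be too much, and left 2082 of the 7498 genes at 0 in ctrl. Of 848 values for 106 named results, 676 moved within their counting error, 159 moved further and 13 reversed. These counts differed by setting. With free RNA subtracted they were 58, 40 and 8 of 106, and without nuclei that carry markers of another tissue 34, 68 and 4. With 3 or more rule genes, 5 or more, or 1000 UMIs or more, 105, 106 and 106 moved within their counting error. These settings used mostly the same nuclei, in ctrl 642, 565 and 570 beside 590 members. They could hardly move the values, and many of the 676 come from them. After subtraction C05D9.12 (4.11) and F36H12.3 (-2.39) reversed in ent-1KO;ent-2KD to ctrl, Y102A5C.6 (3.22) in ent-1KO to ctrl, K10C2.14 (-0.54), Y102A5C.6 (2.98) and Y62H9A.3 (-0.54) in ent-2KO to ctrl, and C15A11.2 and H05L14.1 (both -1.41) in ent-1KO;ent-2KD to ent-1KO. For F36H12.3, K10C2.14, Y62H9A.3, C15A11.2 and H05L14.1 both libraries were then at 0 and the value holds only the 0.5 UMI added and the totals, and C05D9.12 and Y102A5C.6 were at 0 in ctrl. Without nuclei that carry markers of another tissue K05F1.9 (-0.58), F33D4.6 (-2.05 in ent-1KO), col-135 (1.12 in ent-1KO) and C45G9.6 (-0.46 in ent-2KO) reversed, and without the sub-clusters E03H12.5 did (1.50 in ent-1KO), all on 5 or fewer UMIs over both libraries. The cause was not tested for these. Depth, 1 library per condition and the markers of other tissues in members limit every value here. Clustering gave 15 sub-clusters, 13 at resolution 0.3, 22 at resolution 1.0 and 17 without centring. The adjusted Rand index to the main clustering, which is 1 for the same grouping, was 0.54, 0.67 and 0.44 for these 3 alternatives. Nuclei were thus grouped differently, and all values by sub-cluster rest on the main clustering alone.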
